A study of Mus musculus with 4 samples.

Results

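Transcripts of plasma proteins that the liver secretes were followed in hearts of mice with a GSK-3beta S9A knock-in and of wild-type mice. The 36 listed genes were those of albumin and other carriers, the alpha-1-antitrypsin family and other protease inhibitors, clotting factors, apolipoproteins and vitronectin. They were listed with the knock-in against wild-type values of these same arrays known, so their differences are a description and were not tested. The platform annotation named a probe set for 34 of them, out of 18195 genes measured in all. Gc and Serpina3k had no named probe set, so they have no array values here. Where a gene had several probe sets, the brightest on average was taken. Serpina1a and Serpina1d had a single probe set, shared between them, so the 34 genes gave 33 values. Serpina1e had only a probe set shared with Serpina1b and Serpina1c.

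There were 2 arrays of knock-in hearts, from mice aged 3.5 months with serine 9 of GSK-3beta replaced by alanine, and 2 arrays of hearts from wild-type mice aged 3.6 months. All mice were labelled C57B6 and were sampled at baseline, without treatment. GSK-3beta is a kinase that is switched off by phosphorylation of serine 9, which alanine cannot accept. Separate animals are not named in the labels, so the spread inside a group may be technical and p-values measure that spread alone.

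Hepatocytes make most of the protein of blood plasma, and a small set of liver transcription factors (HNF1, HNF4, FOXA and C/EBP proteins) drives these genes together. Their transcripts are among the most abundant in liver. Most of them are not known as products of heart muscle. Ceruloplasmin and vitronectin are among those that are also made outside the liver. An array reports a log2 value for every probe set, with no detection call, so a dim value does not show that a transcript was present.

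Albumin, alpha-1-antitrypsin, hemopexin and fibrinogen transcripts were several-fold higher in knock-in hearts. Ceruloplasmin and vitronectin, the brightest of the genes, were at like levels in both groups by their brightest probe sets. Of the 33 values, 30 were higher in knock-in hearts, against 50.1% of all genes. The median difference was 0.77 on the log2 scale, beside 0.00 (0.0002) over all genes. In 26 of the 33 both knock-in arrays lay above both wild-type arrays, which was so in 19.6% of all genes, and in 1 both lay below, against 16.9% of all genes. A difference of at least 1, which is a doubling, was found for 14 of the 33 and for 0.17% of all genes, 31 genes in number. Since these differences chose the genes, nothing is read from those shares. The levels of most were low: 30 of the 33 wild-type means lay below 7.11, the median wild-type mean of all genes.

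**Figure D1:**
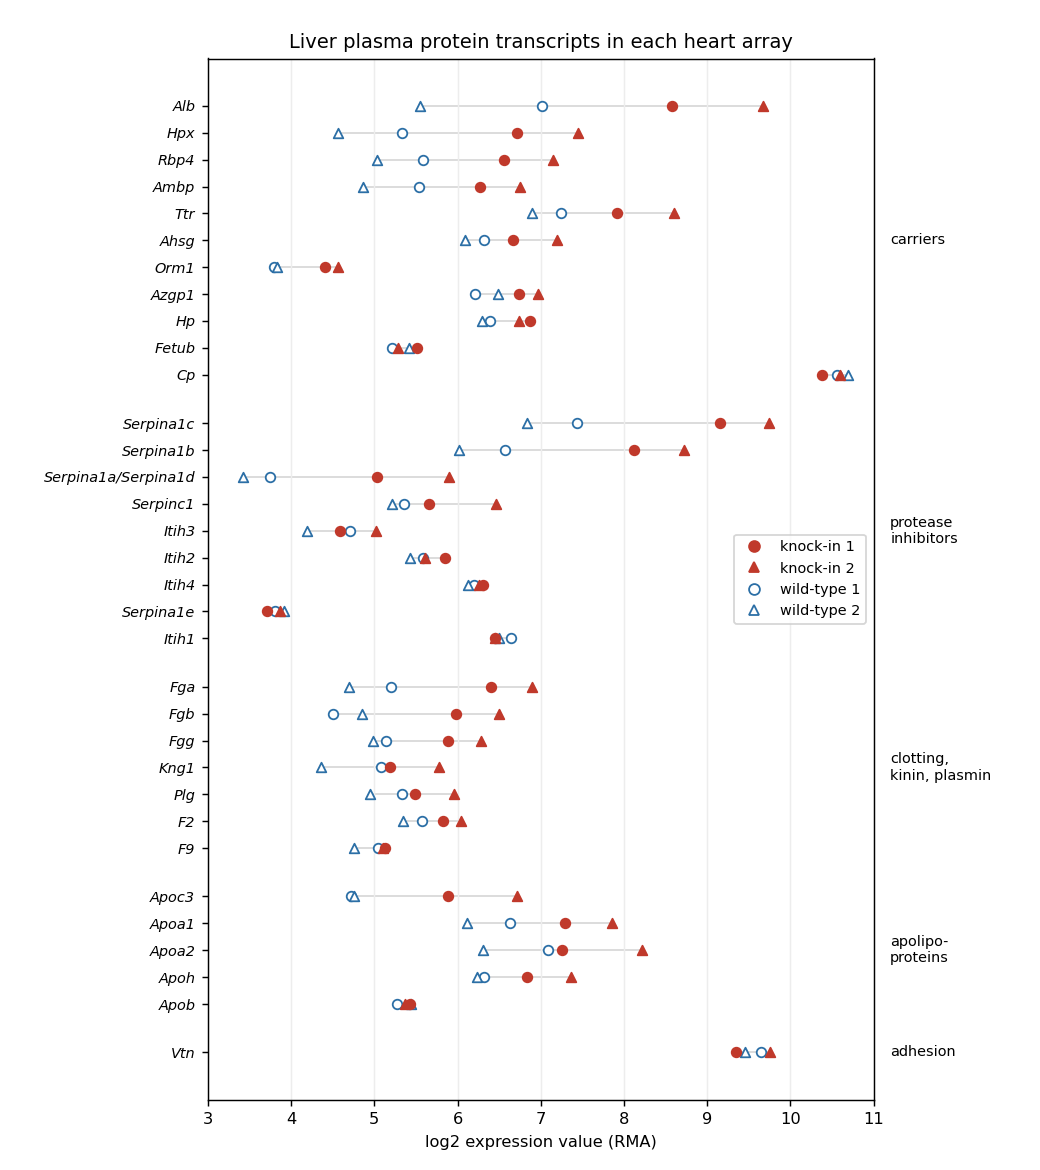
Log2 expression values (horizontal axis) of the 33 probe sets in each of the 4 heart arrays, grouped by the role of the protein. Filled red symbols are knock-in arrays and open blue symbols wild-type arrays, with circles for replicate 1 and triangles for replicate 2. Alb runs from 9.66 in knock-in 2 to 5.54 in wild-type 2, while the 4 values of Cp lie between 10.38 and 10.70.

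Among the carriers, Alb, which encodes serum albumin, had 8.58 and 9.66 in knock-in hearts and 7.01 and 5.54 in wild-type hearts. Its mean was 9.12 ± 0.77 in knock-in and 6.28 ± 1.04 in wild-type hearts (SD, n = 2 each), a 7.18-fold difference. On the log2 scale its difference was 2.84, which became 3.58 when wild-type 1 was left out and 2.11 when wild-type 2 was. The groups did not overlap, but the wild-type arrays themselves lay 1.47 apart. By its mean, Alb stood at the 76.7th percentile of all genes in knock-in hearts and at the 38.3rd in wild-type hearts. Hpx, which encodes the heme scavenger hemopexin, had 6.71 and 7.45 in knock-in hearts and 5.33 and 4.57 in wild-type hearts, a 4.39-fold difference. Rbp4, the carrier of retinol, had 6.56 and 7.15 in knock-in hearts and 5.59 and 5.03 in wild-type hearts, 2.92-fold higher. Both genes, like Alb, were lowest in wild-type 2 and highest in knock-in 2.

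Ambp, whose product is split into alpha-1-microglobulin and the protease inhibitor bikunin, had 6.27 and 6.75 in knock-in hearts and 5.53 and 4.87 in wild-type hearts, 2.48-fold higher. Ttr, the carrier of thyroid hormone and of retinol-binding protein, had 7.92 and 8.60 in knock-in hearts and 7.24 and 6.89 in wild-type hearts, 2.29-fold higher. These 5 carriers thus held the same order of arrays. The fetuin gene Ahsg differed by 0.73, the acute-phase glycoprotein Orm1 by 0.67, Azgp1 by 0.51 and haptoglobin, Hp, by 0.46, each with both knock-in arrays above both wild-type arrays. Fetub, which encodes a second fetuin, differed by 0.09 with overlapping groups. Orm1 was among the dimmest genes on the arrays, at the 4.20th percentile of wild-type means.

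Ceruloplasmin, the copper-carrying ferroxidase encoded by Cp, was the brightest of these genes, at the 91.5th percentile of wild-type means. Cp had 10.38 and 10.60 in knock-in hearts and 10.55 and 10.70 in wild-type hearts. Its means were 10.49 ± 0.15 in knock-in and 10.63 ± 0.10 in wild-type hearts (SD, n = 2 each), so the difference of -0.14 was about as large as the spread within the knock-in group. Vitronectin, an adhesion protein of plasma and matrix encoded by Vtn, had 9.34 and 9.76 in knock-in hearts and 9.64 and 9.46 in wild-type hearts. The wild-type values of Vtn lay between those of the knock-in arrays, and the group means differed by 0.00 (0.00068).

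Among the protease inhibitors, the alpha-1-antitrypsin genes stood apart from the inter-alpha-inhibitor heavy chains. Alpha-1-antitrypsin restrains neutrophil elastase, and mice carry several near-identical copies of its gene. Serpina1c had 9.15 and 9.74 in knock-in hearts and 7.43 and 6.83 in wild-type hearts. Serpina1b had 8.12 and 8.72 in knock-in hearts and 6.56 and 6.02 in wild-type hearts. In both, the lower knock-in array was more than 1.5 above the higher wild-type array, by 1.72 in Serpina1c and 1.55 in Serpina1b. The probe set shared by Serpina1a and Serpina1d had 5.04 and 5.90 in knock-in hearts and 3.75 and 3.42 in wild-type hearts, a 3.70-fold difference.

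The probe set shared by Serpina1e, Serpina1b and Serpina1c did not follow. It had 3.71 and 3.87 in knock-in hearts and 3.81 and 3.91 in wild-type hearts, a difference of -0.07 at the 4.73rd percentile of wild-type means. Of the 5 Serpina1 probe sets, 4 have names ending in x_at, the platform's mark for probes that also match other transcripts, so the copies cannot be told apart with certainty. Serpinc1, which encodes antithrombin, had a difference of 0.77 with the groups apart. The inter-alpha-inhibitor heavy chain genes differed by 0.35 for Itih3, 0.22 for Itih2, 0.12 for Itih4 and -0.12 for Itih1. Itih1 was the only one of the 33 with both knock-in arrays, at 6.45 and 6.45, below both wild-type arrays, at 6.64 and 6.50.

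Among the clotting genes, the chains of fibrinogen, the precursor of fibrin, led. Fga had 6.40 and 6.90 in knock-in hearts and 5.20 and 4.69 in wild-type hearts, a 3.24-fold difference. Fgb had 5.98 and 6.50 in knock-in hearts and 4.51 and 4.85 in wild-type hearts, a 2.94-fold difference. Fgg had 5.89 and 6.28 in knock-in hearts and 5.15 and 4.99 in wild-type hearts, a 2.03-fold difference. All of the fibrinogen chains were higher in knock-in 2 than in knock-in 1. The other 4 genes of the group were kininogen (Kng1, 0.77), plasminogen (Plg, 0.59), prothrombin (F2, 0.47) and factor IX (F9, 0.22), with differences on the log2 scale in the parentheses. Both knock-in arrays lay above both wild-type arrays for all 7 clotting genes, F9 by 0.06.

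Among the apolipoproteins, Apoc3, an inhibitor of triglyceride clearance, had 5.88 and 6.71 in knock-in hearts and 4.72 and 4.75 in wild-type hearts, a 2.96-fold difference. Apoa1, the main protein of high-density lipoprotein, had 7.29 and 7.85 in knock-in hearts and 6.63 and 6.12 in wild-type hearts, 2.29-fold higher. Apoa2, its partner in that particle, had 7.26 and 8.22 in knock-in hearts and 7.09 and 6.31 in wild-type hearts, 2.06-fold higher. Knock-in 1 exceeded wild-type 1 by only 0.17 for Apoa2. Apoh, which encodes beta-2-glycoprotein I, differed by 0.82 with the groups apart. Apob, the structural protein of very low-density lipoprotein, differed by 0.04 with overlapping groups.

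**Figure D2:**
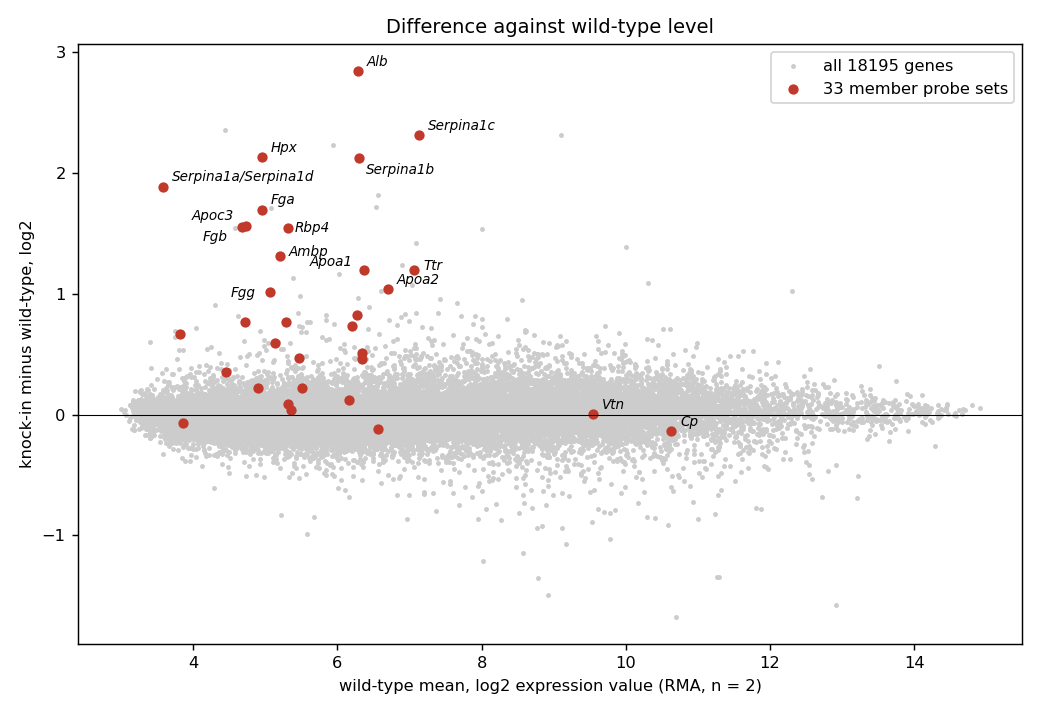
Knock-in minus wild-type difference on the log2 scale (vertical axis) against the wild-type mean of 2 arrays (horizontal axis) for all 18195 genes in grey and the 33 probe sets in red. The red points at 1 or above have wild-type means between 3.58 and 7.13, while Vtn and Cp, with means of 9.55 and 10.63, lie near 0.

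The order of the 4 arrays was shared by many of the genes. From low to high, wild-type 2, wild-type 1, knock-in 1 and knock-in 2 was the order of 18 of the 33, including 12 of the 14 with a difference of at least 1, and of 6.14% of all genes. It held for Alb, Hpx, Rbp4, Ambp, Ttr, Ahsg, Serpina1a with Serpina1d, Serpina1b, Serpina1c, Serpinc1, Fga, Fgg, F2, Plg, Kng1, Apoa1, Apoa2 and Apoh. A further 4 (Apoc3, Azgp1, Fgb and Orm1) had the wild-type arrays in the other order, as had 6.51% of all genes. Another 4 (F9, Hp, Itih2 and Itih4) had the knock-in arrays in the other order, as had 3.37% of all genes. The remaining 7 had orders that 1 or 2 of them shared. The genes were listed with the knock-in against wild-type values known, so that choice partly set which group lay higher in these orders. Among genes with both knock-in arrays above both wild-type arrays, the order of Alb held for 18 of the 26 listed and 1117 of 3562 in all.

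Differences inside the groups were a comparison of 1 array with 1 array, so they have no replicate check. Knock-in 2 was above knock-in 1 in 27 of the 33, against 53.9% of all genes, and in all 14 with a difference of at least 1. Wild-type 1 was above wild-type 2 in 25 of the 33, against 58.5% of all genes, and in 12 of those 14. For the 14 the median of knock-in 2 minus knock-in 1 was 0.60 and that of wild-type 1 minus wild-type 2 was 0.53, whereas the medians over all genes were 0.02 and 0.04. Across the 33, the difference between groups went with that between the knock-in arrays (Pearson's r = 0.76) and with that between the wild-type arrays (r = 0.64), where r over all genes was 0.22 and -0.10. Those are correlations across genes, and in each the 2 arrays of the within-group difference also enter the difference between groups.

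**Figure D3:**
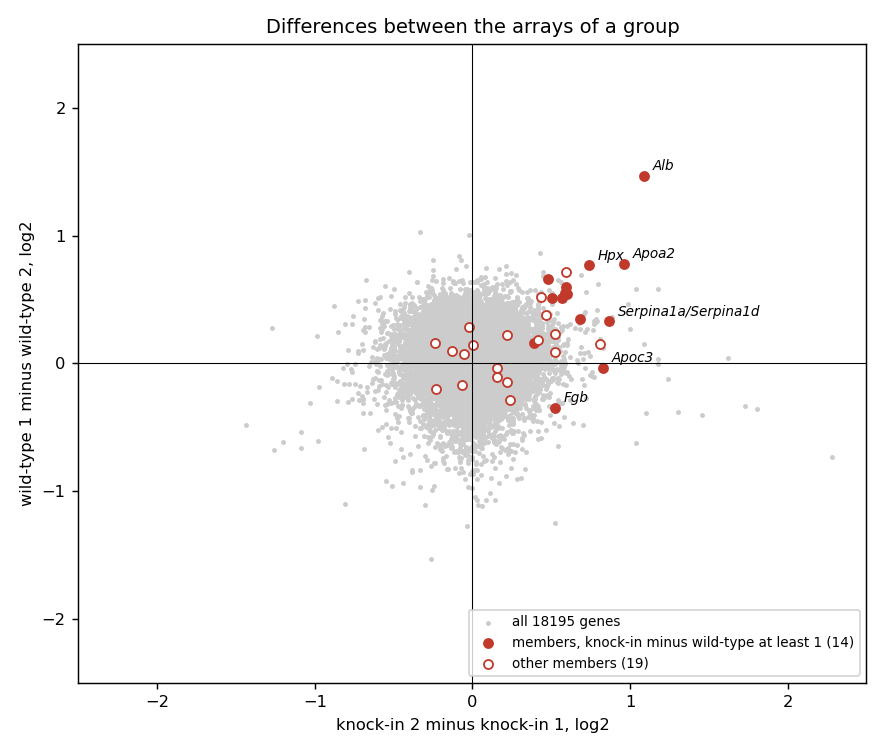
Difference between the knock-in arrays (horizontal axis, knock-in 2 minus knock-in 1) against that between the wild-type arrays (vertical axis, wild-type 1 minus wild-type 2), both log2, for all 18195 genes in grey. Filled red points are the 14 genes with a knock-in minus wild-type difference of at least 1 and open red points the other 19. All 14 filled points lie right of 0, and 12 of them also lie above 0.

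On the unlogged scale, the values of the 14 genes summed to 2354 and 3884 in knock-in hearts and to 1052 and 703 in wild-type hearts. The other 19 summed to 3014 and 3626 in knock-in hearts and to 3166 and 3167 in wild-type hearts, sums that Cp and Vtn dominate. Taking wild-type 2 as the base, the excess of knock-in 1 was between 33.8% and 62.4% of the excess of knock-in 2 over the 14 genes, with a median of 54.4%. The excess of wild-type 1 was between -10.0% and 26.0% of it, with a median of 10.9%. Knock-in 1 therefore lay about midway between wild-type 2 and knock-in 2 on that scale for most of these genes.

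Several probe sets were available for 9 of the 34 genes, and they differed in how far the groups lay apart. All 4 probe sets of Ttr were higher in knock-in hearts, the brightest by 1.19 and the other 3 by 2.24 to 2.33. All 4 of Apoa1 were higher, by 1.20 to 1.98, and again the brightest gave the smallest difference. The second probe set annotated to Serpina1b alone differed by 2.15, beside 2.13 for the brightest. For Apob the probe set that was not chosen differed by 0.56, with 5.20 and 6.11 in knock-in hearts and 5.26 and 4.93 in wild-type hearts. The second probe set of Apoh, at 4.77 and 4.71 in knock-in hearts and 4.82 and 4.64 in wild-type hearts, differed by 0.01. With all probe sets of a gene averaged, shared ones included, the difference was 2.02 for Ttr, 1.12 for Serpina1c and 1.40 for Serpina1b. Kng1 had 0.26 with its other probe set, and both of Vtn were near 0 (0.00068 and 0.0130). The 8 probe sets of Cp gave differences from -0.48 to 0.16, of which 6 were negative. Some had the groups apart, in either direction. For 1 of them the values were 9.68 and 9.63 in knock-in hearts and 9.94 and 9.97 in wild-type hearts. Another had 9.29 and 9.39 in knock-in hearts and 9.12 and 9.25 in wild-type hearts.

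**Figure D4:**
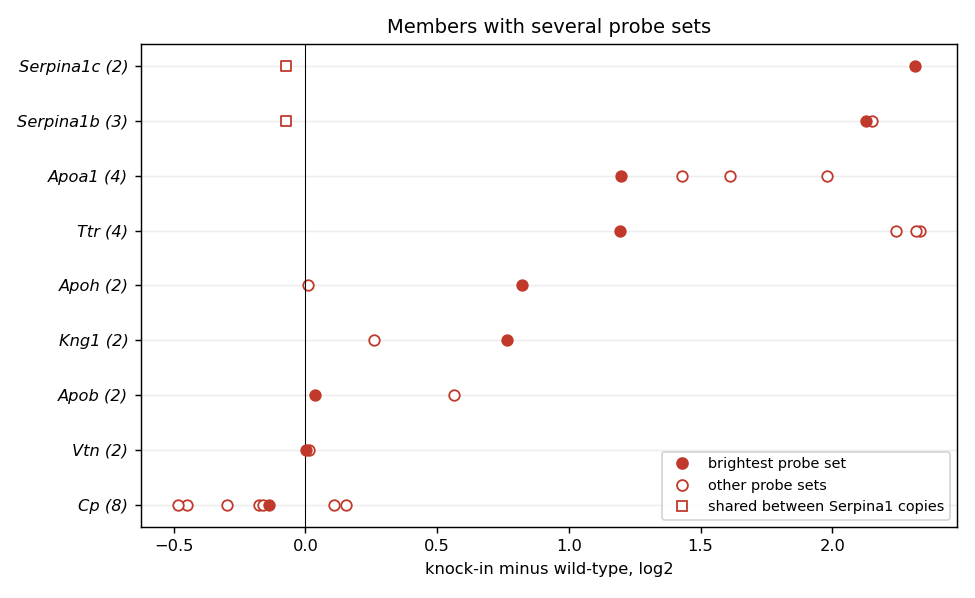
Knock-in minus wild-type difference on the log2 scale (horizontal axis) for every probe set of the 9 genes with several, whose number is in parentheses. Filled symbols are the brightest probe sets and squares those shared between Serpina1 copies. The probe sets of Ttr and Apoa1 all lie above 1, and those of Cp lie on both sides of 0.

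The promoters were searched for letters that liver transcription factors are known to recognise. RefSeq start sites on build GRCm38.p6 were held for 29 of the 36 genes, and the 250 bases upstream of the first-listed start were read on both strands. The 29 include Gc, which had no array values. In all 15 patterns were searched, and 3 were taken further after their shares among these promoters had been seen, so the contrast of those 3 with all promoters is a description of chosen patterns. The half-site of HNF1, GTTAAT, was found in 12 of the 29 (41.4%) and in 6.52% of 27025 promoters of that length. The C/EBP motif TTGCNNAA was found in 11 (37.9%), against 9.55% of all promoters, and the FOX motif TGTTTNC in 17 (58.6%), against 17.9%.

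The other 12 patterns were narrower forms of these, forms of the HNF4 motif and the TATA box, and most were found in few of the 29 promoters. The full HNF1 palindrome, which joins the half-site to its mirror image over a spacer, and its form with a looser spacer were in 0 of the 29, against 0.0074% and 0.0333% of all promoters. The same forms 1 base shorter were each in 1, Gc (3.45%), against 0.0629% and 0.137%. The palindrome cut by 3 bases was in 2, Cp and Gc (6.9%), against 0.411%. The HNF4 forms CAAAGTCCA and CAAAGGTCA were in 0, against 0.381% and 0.407%, and CAAAGNNCA was in 4 (13.8%), against 5.47%. The stricter C/EBP form TTGCGNAA was in 1 (3.45%), against 0.67%. Of the FOX forms, TGTTTAC was in 3 (10.3%), against 3.09%, and TGTTTGC in 11 (37.9%), against 4.3%. TATAAA was in 4 (13.8%), against 13% of all promoters. Many of these patterns overlap by their letters.

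No C/EBP match overlapped a FOX match among the 3 chosen patterns in the 29 promoters. These are matches of letters, not measured binding sites, and the 5 Serpina1 copies, whose promoters were 92.1% to 98.0% identical in pairwise alignment, count as separate genes. At least 1 of the 3 was present in 24 of the 29 (82.8%), against 29.8% of all promoters. That contrast too is a description, since the 3 were chosen after their shares were seen. Serpinc1, F2, Fgg, Azgp1 and Itih4 had none of these letters in the window. Cp, Vtn and Itih1, which did not differ by much or were lower, also held the HNF1 half-site.

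The upstream sequences of 6 genes with large differences are given to show where those letters fall, with Vtn as a gene whose arrays overlapped. Each is the 250 bases before the RefSeq start on GRCm38.p6, 5′ to 3′ on the gene's strand, with all matches to the 3 chosen motifs in capitals. Alb lies at chr5:90460620-90460869 on the plus strand, Serpina1b at chr12:103738190-103738439 on the minus strand and Serpina1c at chr12:103904951-103905200 on the minus strand. Fga lies at chr3:83025903-83026152 on the plus strand, Hpx at chr7:105600117-105600366 on the minus strand, Apoa1 at chr9:46228380-46228629 on the plus strand and Vtn at chr11:78498870-78499119 on the plus strand. Alb, Serpina1b and Fga each hold 1 match to each motif. Serpina1c, 92.3% identical to Serpina1b here, lacks the C/EBP match.
Alb: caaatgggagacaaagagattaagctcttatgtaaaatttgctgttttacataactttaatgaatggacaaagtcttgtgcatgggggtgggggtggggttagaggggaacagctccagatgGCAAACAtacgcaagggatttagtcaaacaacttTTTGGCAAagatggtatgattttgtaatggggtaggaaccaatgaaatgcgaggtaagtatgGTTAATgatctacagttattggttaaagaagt
Serpina1b: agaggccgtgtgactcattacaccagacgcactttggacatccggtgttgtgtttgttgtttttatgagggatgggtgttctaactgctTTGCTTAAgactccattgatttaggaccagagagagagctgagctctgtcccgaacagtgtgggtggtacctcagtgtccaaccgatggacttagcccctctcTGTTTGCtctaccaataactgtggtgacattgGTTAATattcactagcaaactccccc
Serpina1c: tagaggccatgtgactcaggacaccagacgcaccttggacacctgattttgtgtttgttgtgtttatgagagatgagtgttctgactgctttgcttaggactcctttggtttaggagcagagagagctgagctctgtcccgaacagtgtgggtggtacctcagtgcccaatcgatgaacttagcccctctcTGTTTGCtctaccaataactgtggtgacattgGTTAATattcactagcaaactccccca
Fga: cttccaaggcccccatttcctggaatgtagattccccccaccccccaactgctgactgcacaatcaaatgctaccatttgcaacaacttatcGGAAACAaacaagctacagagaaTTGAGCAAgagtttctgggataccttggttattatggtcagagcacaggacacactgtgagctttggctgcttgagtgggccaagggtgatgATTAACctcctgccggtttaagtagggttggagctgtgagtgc
Hpx: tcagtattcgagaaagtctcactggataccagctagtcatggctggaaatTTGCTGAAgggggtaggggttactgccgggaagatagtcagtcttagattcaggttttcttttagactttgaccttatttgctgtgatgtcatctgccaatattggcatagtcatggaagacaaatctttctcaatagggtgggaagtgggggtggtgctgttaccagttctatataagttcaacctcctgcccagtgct
Apoa1: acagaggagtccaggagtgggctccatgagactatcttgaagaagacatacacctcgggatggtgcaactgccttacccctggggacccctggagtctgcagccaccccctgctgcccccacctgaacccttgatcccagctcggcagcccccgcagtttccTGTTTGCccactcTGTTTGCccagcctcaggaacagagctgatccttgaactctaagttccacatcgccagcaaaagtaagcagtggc
Vtn: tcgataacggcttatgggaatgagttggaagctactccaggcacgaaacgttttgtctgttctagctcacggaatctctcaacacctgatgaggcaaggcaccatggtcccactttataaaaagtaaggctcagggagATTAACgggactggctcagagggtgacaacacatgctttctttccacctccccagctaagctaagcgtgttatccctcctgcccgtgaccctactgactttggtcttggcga

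Other genes of the same kind were then set beside these, from lists drawn up with earlier results of these data known. They were tested with limma, with p-values adjusted by Benjamini and Hochberg's method across the 18195 genes and called under 0.05. At that threshold 1 gene, 0.0055% of all, was called. It was the cell cycle inhibitor Cdkn1a, lower in knock-in hearts by -1.67 (adjusted p = 0.0436), and it is no plasma protein gene. Without a call, 4.4% of all genes were higher and 2.99% lower at an unadjusted limma p under 0.05. It was not called without any 1 of the arrays, with the replicate block or with the first-listed probe set. With an intensity trend and robust prior limma called 12 genes higher and 10 lower, and 4 of those 22 (Fga, Fgb, Serpina1b and Serpina1c) were listed genes, of which nothing is read since this contrast chose them. Gsk3b itself had 9.82 and 9.87 in knock-in hearts and 9.62 and 9.72 in wild-type hearts, and its transcript level does not check the serine replacement.

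Of 63 other liver-secreted plasma proteins 56 were measured, and their median difference was 0.12, or 0.20 without wild-type 1, beside 0.77 for the listed genes. Of the 56, 45 were higher in knock-in hearts, against 50.1% of all genes. Both knock-in arrays lay above both wild-type arrays in 26 (19.6% of all genes) and below them in 3 (16.9% of all genes). None passed by limma in either direction, with or without the trend. At an unadjusted limma p under 0.05, 15 were higher (4.4% of all genes) and 0 lower (2.99% of all genes). Those of smallest p were the major urinary protein gene Mup3, with 5.11 and 5.29 in knock-in hearts and 4.17 and 4.42 in wild-type hearts, the complement subunit C8g (0.62), the paraoxonase Pon1 (0.59) and the esterase Ces1c (0.48). Their adjusted limma p ran from 0.220 for Mup3 to 0.409 for Ces1c. Apoc1, singled out after its values were seen, differed most, with 6.60 and 7.78 in knock-in hearts and 6.32 and 5.73 in wild-type hearts. Most of this list was dim, with 53 of the 56 below the median wild-type mean of all genes.

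Plasma proteins that heart, vessel wall or resident leukocytes also make were bright, with a median wild-type mean of 9.44 over 31 genes. Their median difference was 0.14, with 22 of the 31 higher, against 50.1% of all genes, and 9 lower. Both knock-in arrays lay above both wild-type arrays in 15 of the 31 (19.6% of all genes) and below them in 4 (16.9% of all genes). None passed the limma threshold under either prior. At an unadjusted limma p under 0.05, 3 were higher (4.4% of all genes) and 0 lower (2.99% of all genes). The 4 of smallest p were the acute-phase inhibitor Serpina3n (0.59), the prostaglandin synthase Ptgds (0.40), tissue factor, F3 (0.33), and the factor XIII subunit F13a1 (0.26), with adjusted limma p from 0.415 to 0.692. Serpina3n had 8.52 and 8.86 in knock-in hearts and 7.98 and 8.22 in wild-type hearts, so its wild-type arrays stood in the opposite order to those of Alb.

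Of 29 liver enzyme transcripts measured, 26 were higher in knock-in hearts, against 50.1% of all genes, with a median difference of 0.23. Both knock-in arrays lay above both wild-type arrays in 20 (19.6% of all genes) and below them in 0 (16.9% of all genes), and 13 of the 29 held the order of arrays of Alb, against 6.14% of all genes. None passed by limma, and 11 were higher at an unadjusted limma p under 0.05, against 4.4% of all genes. The drug-metabolising Cyp3a11 had 6.27 and 7.31 in knock-in hearts and 4.73 and 4.14 in wild-type hearts, and the methyltransferase Bhmt had 5.74 and 6.51 in knock-in hearts and 4.73 and 4.42 in wild-type hearts. Both had the order of arrays of Alb. The gluconeogenic enzyme gene Fbp1 differed by 0.98. It missed the limma threshold as fitted (adjusted p = 0.0772) and passed it with the trend and robust prior, after centring, after quantile normalization and with averaged probe sets. The urea cycle enzyme gene Cps1 differed by 0.73 (limma, adjusted p = 0.311).

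The regulators and transporters that define hepatocytes were spread around 0. Of 21 measured, 9 were higher in knock-in hearts, against 50.1% of all genes, and 12 lower, with a median difference of -0.04. Both knock-in arrays lay above both wild-type arrays in 0 (19.6% of all genes) and below them in 4 (16.9% of all genes). Most were dim, with 17 of the 21 below the median wild-type mean of all genes, so a small difference could be hidden. Their unlogged values summed to 3082 and 2988 in knock-in hearts and to 3130 and 3068 in wild-type hearts. The brightest of them, with a wild-type mean of 10.21, weighs heavily in those sums. None passed by limma under either prior. At an unadjusted limma p under 0.05, 0 were higher (4.4% of all genes) and 1, Onecut1, lower (2.99% of all genes). Onecut1 differed by -0.29, Asgr2 by -0.20, Slc10a1 by 0.22 and Prox1 by 0.41, with adjusted limma p from 0.562 to 0.820. The liver factor Hnf4a, singled out after its values were seen, had 6.88 and 6.83 in knock-in hearts and 6.95 and 6.69 in wild-type hearts. Foxa2 and Cebpa, chosen in the same way, differed by -0.07 and -0.05. No marker is at 0, because the arrays give every probe set a value.

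**Figure D5:**
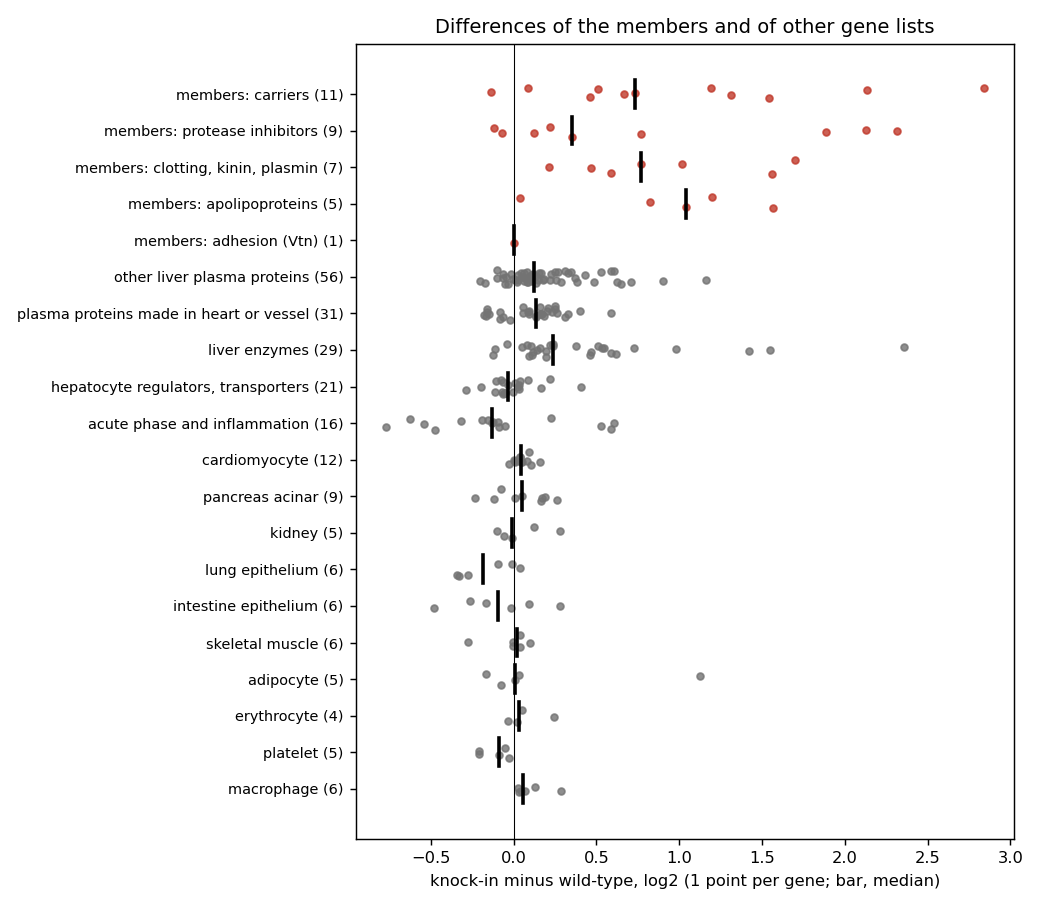
Knock-in minus wild-type difference on the log2 scale (horizontal axis) for each gene of the listed plasma proteins by role (red) and of the other gene lists (grey), with the number of genes in parentheses and a black bar at the median. Medians of the red groups other than Vtn lie between 0.35 and 1.04, and those of the grey lists between -0.19 and 0.23.

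Of 16 inflammatory and acute-phase signalling genes, 12 had lower and 4 had higher means (50.1% of all genes) in knock-in hearts. Their median difference was -0.13. Both knock-in arrays lay below both wild-type arrays in 10 of the 16 (16.9% of all genes) and above them in 4 (19.6% of all genes). None passed by limma under either prior. At an unadjusted limma p under 0.05, 3 were higher (4.4% of all genes) and 5 lower (2.99% of all genes). Those of smallest p were the transcription factors Cebpd (-0.63) and Stat3 (-0.48), which act in the response to interleukin-6, its feedback inhibitor Socs3 (-0.54) and Serpina3n (0.59). Their adjusted limma p ran from 0.287 to 0.415.

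Markers of other tissues were given the same comparison. The 12 cardiomyocyte genes had wild-type means of 10.94 to 14.68 and differences from -0.03 to 0.16, which matched the heart label. Of these 12, 11 were higher in knock-in hearts, against 50.1% of all genes. In 5 of them both knock-in arrays lay above both wild-type arrays (19.6% of all genes), and in 0 below (16.9% of all genes). The largest was that of Mybpc3, with 14.23 and 14.30 in knock-in hearts and 14.10 and 14.10 in wild-type hearts. Medians were 0.05 for pancreas acinar cells, -0.01 (-0.008) for kidney, -0.19 for lung epithelium, -0.09 for intestine epithelium, 0.02 for skeletal muscle, 0.01 for adipocytes, 0.04 for erythrocytes, -0.09 for platelets and 0.06 for macrophages. Genes higher in knock-in hearts were 6 of 9 for pancreas, 2 of 5 for kidney, 1 of 6 for lung and 2 of 6 for intestine. They were 3 of 6 for skeletal muscle, 3 of 5 for adipocytes, 3 of 4 for erythrocytes, 0 of 5 for platelets and 6 of 6 for macrophages. Both knock-in arrays lay above both wild-type arrays in 4 macrophage and 3 pancreas genes, and in 1 gene each for kidney, intestine, skeletal muscle and adipocytes. They lay below in 3 intestine, 2 lung and 1 pancreas genes. No gene of these lists passed by limma under either prior. Adipoq, the adipocyte hormone adiponectin, differed most among them, with 6.47 and 6.54 in knock-in hearts and 5.11 and 5.65 in wild-type hearts (limma, adjusted p = 0.233). More cells of a type and more transcript per cell cannot be told apart in a bulk heart sample. The part of any other cell type in the plasma protein values was not tested.

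Outside all lists, the 10 genes of largest difference that held the order of arrays of Alb were of mixed kinds. The muscle, fat and liver carbonic anhydrase Car3 had 8.07 and 8.26 in knock-in hearts and 6.23 and 5.65 in wild-type hearts. The liver fatty acid binding protein Fabp1 had 6.29 and 7.29 in knock-in hearts and 5.22 and 4.95 in wild-type hearts, and the glutathione transferase Gsta3 differed by 0.84. The others were the clock gene Per3 (1.82), the transferrin receptor Tfrc (1.39), the skeletal actin Acta1 (1.02), Nrn1 (0.95), Gm16793 (0.84), Adat2 (0.83) and E330017L17Rik (0.78). The adjusted limma p was 0.0725 for Car3, which passed with the trend and robust prior, after centring and after quantile normalization. It ran from 0.206 to 0.477 for the others, of which Per3 passed with the trend and robust prior.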

How the data were processed

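Total RNA of mouse heart was labelled as biotinylated cRNA and hybridised to 4 Affymetrix 3' arrays. Per the submitters' processing notes, the authors ran RMA in Affymetrix Expression Console, and the values they deposited are on the log2 scale. RMA subtracts background, sets the arrays to 1 distribution and summarises probes, so values of dim probe sets are compressed and fold changes understated. No version of these tools is named. Per the labels, the wild-type and knock-in arrays were normalized together, apart from other arrays set against the same wild-type samples. Array medians over 45101 probe sets lay between 5.97 and 6.04. The number of arrays limits the precision.

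The platform annotation gave 1 symbol for 34945 probe sets, several for 932 and none for 9160, besides 64 controls. A RefSeq table of GRCm38.p6 held 34741 of the single symbols by Entrez identifier and gave their present form. Probe sets with several symbols entered only for Serpina1 copies. Knock-in minus wild-type differences were fitted over 18195 genes with limma 3.58.1 (lmFit, then eBayes with no trend; R 4.3.3) and tested two-sided. Exact permutation of 2 against 2 arrays cannot go below p = 0.333. On 10 simulated tables of 18195 genes for this comparison, 84.6% of genes changed 2-fold and 99.1% changed 4-fold were recovered. Each table held 200 changed genes, and on average 8.3 unchanged genes were called. In those tables genes varied independently, with a spread drawn from the prior that limma fitted. The median absolute difference between the knock-in arrays was 0.48 for the members and 0.11 over all genes, so those recoveries need not hold for them. In the deposited values 31 genes were higher by at least 1 and 0 were called higher. A gene that is not called is therefore not shown to be unchanged.

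Members and lists were chosen with earlier results of these data known. By the rule for named genes, the text gives the 14 members of largest difference, the 4 brightest in wild-type hearts and those with a negative difference. It adds up to 4 genes of smallest p per list and 10 genes outside the lists. Of 15 promoter patterns searched, 3 were chosen for detail after their shares were seen, and all 15 are given. Alternatives were an intensity trend and robust prior, the replicate block, centring, quantile normalization, a filter on dim genes, other choices of probe set and leaving out each array.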

Additional observations from a re-analysis of the deposited data

How the results depend on the processing

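Over centring, quantile normalization, other probe sets and each array left out, between 28 and 30 of the 33 values were higher in knock-in hearts, or 29 of 31 with single-symbol probe sets alone. The median member difference ran from 0.67 to 0.81 over those settings with all arrays and from 0.53 (without knock-in 2) to 1.06 (without knock-in 1) without 1 array. With all arrays, 26 or 27 of the 33 had both knock-in arrays above both wild-type arrays, or 25 of 31 with single-symbol probe sets alone. The share of all genes was 19.6% as reported. Without 1 array the groups were apart in 27 or 28 of the 33. A group of 1 array is more easily apart from the other, and the share of all genes was not computed there. The 14 largest differences were positive in all 144 values computed, from 0.56 to 3.58. These 14 were picked as the largest in the same arrays and all had the groups apart. Leaving out 1 array could therefore not turn their sign, and nothing is read from that count. Among genes above the median of all genes, 7 members were left, and their median difference was 1.19. Of these, 6 were higher, 5 had the groups apart and 5 held the order of arrays most frequent among the members. That filter used the mean over all 4 arrays, so high knock-in values helped a gene to pass. Alb, Serpina1b, Apoa2 and Ttr had wild-type means of 6.28, 6.29, 6.70 and 7.07, below 7.11, the median wild-type mean of all genes. Nothing is therefore read from those counts. The median of the other liver plasma proteins was 0.20 without wild-type 1 and 0.03 among the 4 genes left above the median, and ran from 0.11 to 0.16 otherwise. Vtn turned to -0.0216 after quantile normalization, and without 1 array ran from -0.21 (without knock-in 2) to 0.21 (without knock-in 1), with -0.09 without wild-type 2. Serpina1e ran from -0.15 (without knock-in 2) to 0.0045 (without knock-in 1). Ttr was at 2.02, Serpina1c at 1.12 and Serpina1b at 1.40 with averaged probe sets, and Apoa1 at 1.61 with the first-listed one. Centring moved the median of all genes by less than 0.1, to 0.04.

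The number of genes past the limma threshold was 1 as reported, 22 with the trend and robust prior (12 higher), 11 with arrays centred (7 higher) or quantile normalized (7 higher), 10 with averaged probe sets (7 higher), 7 above the median (3 higher), 0 with the first-listed probe set and 0 with the replicate block. It was from 0 to 0 without any 1 array, where a group left with 1 array takes its spread from the other group. Of the listed genes, those counts hold 4 with the trend, 2 after centring, 2 after quantile normalization and 1 with averaged probe sets. Since this contrast chose the listed genes, nothing is read from their calls. As reported, limma gave 1344 genes an unadjusted p under 0.05. Same-numbered arrays did not deviate together over all genes (r = -0.031), and r was -0.153 over the 9097 genes above the median. With 4 arrays this cannot settle whether the numbers pair the samples, and the labels do not say. The replicate block result of 0 genes against 1 is given for completeness. The cause of these changes was not tested. Dim values limit most members: 30 of 33 lay below the median wild-type mean.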
